A study of Homo sapiens with 6 samples.

Results

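The genes described here encode glycoproteins and proteoglycans of the extracellular matrix and the cell surface, 38 in all. They were taken as the probe sets annotated to 1 symbol among those 38 names, with CYR61 counted as CCN1 and CTGF as CCN2, and every name was found. They account for 100 of the 41091 probe sets that carry a single symbol, and for 38 of 19775 genes. The cells were HMLE, human mammary epithelial cells immortalised in culture. The control line carried a pBabe retrovirus with a GFP hairpin. The Twist line carried a pBabe retrovirus with Twist, which encodes a driver of the epithelial-mesenchymal transition (EMT). Both lines are retroviral transductants of the same parent cells, and no source used here says whether either was 1 clone or a pool. Each line received the solvent DMSO, Cmp302 at 5 µM or Cmp302 at 10 µM, a compound named only by that code. Total RNA of each of the 6 groups was hybridised to 1 Affymetrix U133 Plus array. The labels conflict: 5 µM and 10 µM for 6 h stand in titles and protocol, but 2 µM with times of 4 h and 8 h in source names and tags. The arrays are therefore named by title, and the step between levels cannot be told apart as dose or time.

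The extracellular matrix holds fibrous glycoproteins such as fibronectin, elastic microfibrils built on fibrillins, and proteoglycans, which are core proteins carrying sulfated sugar chains. Epithelial cells rest on a basement membrane of laminin and collagen networks joined by nidogens, perlecan and agrin, and carry syndecans at their surface. Mesenchymal cells make an interstitial matrix with fibrillins, fibulins and small leucine-rich proteoglycans such as decorin and lumican. EMT is known for a change from the former kind of matrix towards the latter. Matrix proteins are made in the endoplasmic reticulum (ER) in large amounts, and the series title names ER stress as the response under study.

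All values are log2 signals of a gene's brightest probe set, scaled between arrays, and signals under 3.71, the median value over all probe sets and arrays, were raised to this floor. A difference against the floor is a bound and is written as at least. Between 11646 and 11841 genes lay above the floor on each array. The arrays differed in the contrast between 3' and middle probe sets of ACTB and GAPDH, a measure of RNA integrity and labelling. In log2 units this was 0.28 (DMSO), 0.45 (5 µM) and 0.84 (10 µM) for the control line, and 0.96, 0.36 and 0.45 in the same order for the Twist line. It was highest on the Twist DMSO array, against which each Twist-line Cmp302 array is read, and the part of this contrast in the changes below was not tested. TWIST1 had 10.70, 10.51 and 10.48 in the control line against 11.57, 11.96 and 11.35 in the Twist line, higher on every Twist-line array as labelled; whether its probe set reads the retroviral copy is not known here. The epithelial markers also matched the labels. All 8 were above the floor in the control line, where their summed linear signal was 51098 to 65146, and 3 of 8 in the Twist line (423 to 765). The 8 mesenchymal markers summed to 5356 to 7047 in the control line and to 35434 to 39946 in the Twist line. Of 5 blood cell markers 4 were below the floor on every array, as were 4 of 5 endothelial, 3 of 4 fat cell and 2 of 5 smooth muscle and nerve markers. The endothelial and fat cell lists were higher in the Twist line through PECAM1 (7.20 to 7.64, against 3.80 to 4.05 in the control line) and FABP4 (10.62 to 11.00, against 7.77 to 8.18), with CDH5, VWF, KDR, TEK, ADIPOQ, PLIN1 and LEP below the floor throughout. In RNA from a whole culture, fewer cells of a kind and less RNA per cell cannot be told apart.

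The first comparison is between the lines, which differ in their retroviral insert. The Twist line had much higher signal for interstitial and microfibril genes and for some cell-surface proteoglycans, and lower signal for agrin, syndecan-1, TGFBI and MFAP5. In a limma fit over the 6 arrays with treatment as a factor, 20 of the 38 were called higher in the Twist line and 4 were called lower, with adjusted p under 0.05. Over all 12478 genes tested, 13.7% were called higher and 14.9% lower. The median line difference was 0.81 log2 units over the 38 genes and 0.00 over all genes, and -0.01 over the genes tested. Of the 38, 34 lay above the floor on at least 2 arrays and entered the fit, 10 were not called, and FBLN2, EMILIN1, GPC3 and GPC4 were not tested. With 1 array a group there are no replicates: the error, on 2 residual degrees of freedom, measures how the line difference varied across treatments. For a gene at the floor throughout 1 line, such as BGN or MFAP5, only the arrays of the other line add to that variation. Under the 16 other settings tried, 12 of the 20 higher genes were called every time, and MFAP5 alone of the 4 lower ones. BGN, LTBP1, MGP and AGRN had no unsuffixed probe set above the floor. They were therefore not tested without suffixed probe sets, and were called under all the other settings. SPARC and TNC lost their calls without any single 5 µM or 10 µM array, and GPC1 without either 5 µM array.

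At single treatments the count past 2-fold was alike. Under DMSO 17 of the 38 were higher and 4 lower, against 11.9% and 13.5% of all genes above the floor. At 5 µM 19 were higher and 4 lower, against 12.1% and 12.6%, and at 10 µM again 19 and 4, against 14.8% and 14.1%. The 4 lower genes were MFAP5, SDC1 and AGRN each time, with TGFBI under DMSO and THBS1 on the Cmp302 arrays. TGFBI and the brightest probe set of THBS1 thus crossed the 2-fold line in opposite directions. The other THBS1 probe sets were already lower in the Twist line under DMSO, by -2.08, -1.91, -1.80, -1.16, -0.55 and -0.18 log2 units.

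Interstitial matrix proteoglycans had the highest median of the groups with more than 1 gene, with 3 of 4 higher at 7.01 log2 units, including bounds. LUM encodes lumican, a small leucine-rich proteoglycan that binds collagen fibrils. It was below the floor on all 3 control-line arrays and had signals of 12.83, 11.66 and 10.86 in the Twist line at DMSO, 5 µM and 10 µM in turn. The line difference was at least 8.07 ± 0.40 log2 units (SE, limma adjusted p = 9.3e-05), and at least 9.12 under DMSO alone. Its other probe set, at 3.98 to 4.83 in the Twist line, gave at least 0.71. DCN encodes decorin, a related proteoglycan that also binds collagen and TGF-beta. It too was below the floor in the control line, with 11.57, 10.75 and 10.12 in the Twist line, which differ by at least 7.10 ± 0.32 (adjusted p = 6.4e-05). BGN, encoding biglycan, decorin's nearest relative, was below the floor in the control line and had 10.61, 10.69 and 10.60 in the Twist line, at least 6.92 ± 0.19 higher (adjusted p = 2.6e-05). VCAN, encoding versican, a large hyaluronan-binding proteoglycan, had 6.21, 5.82 and 6.14 in the control line against 5.77, 6.12 and 5.90 in the Twist line. Its ranges overlapped, and its difference of -0.13 ± 0.20 was not called (adjusted p = 0.71). The small leucine-rich genes were therefore all measured in the Twist line only, while versican was not distinguished between the lines.

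**Figure D1:**
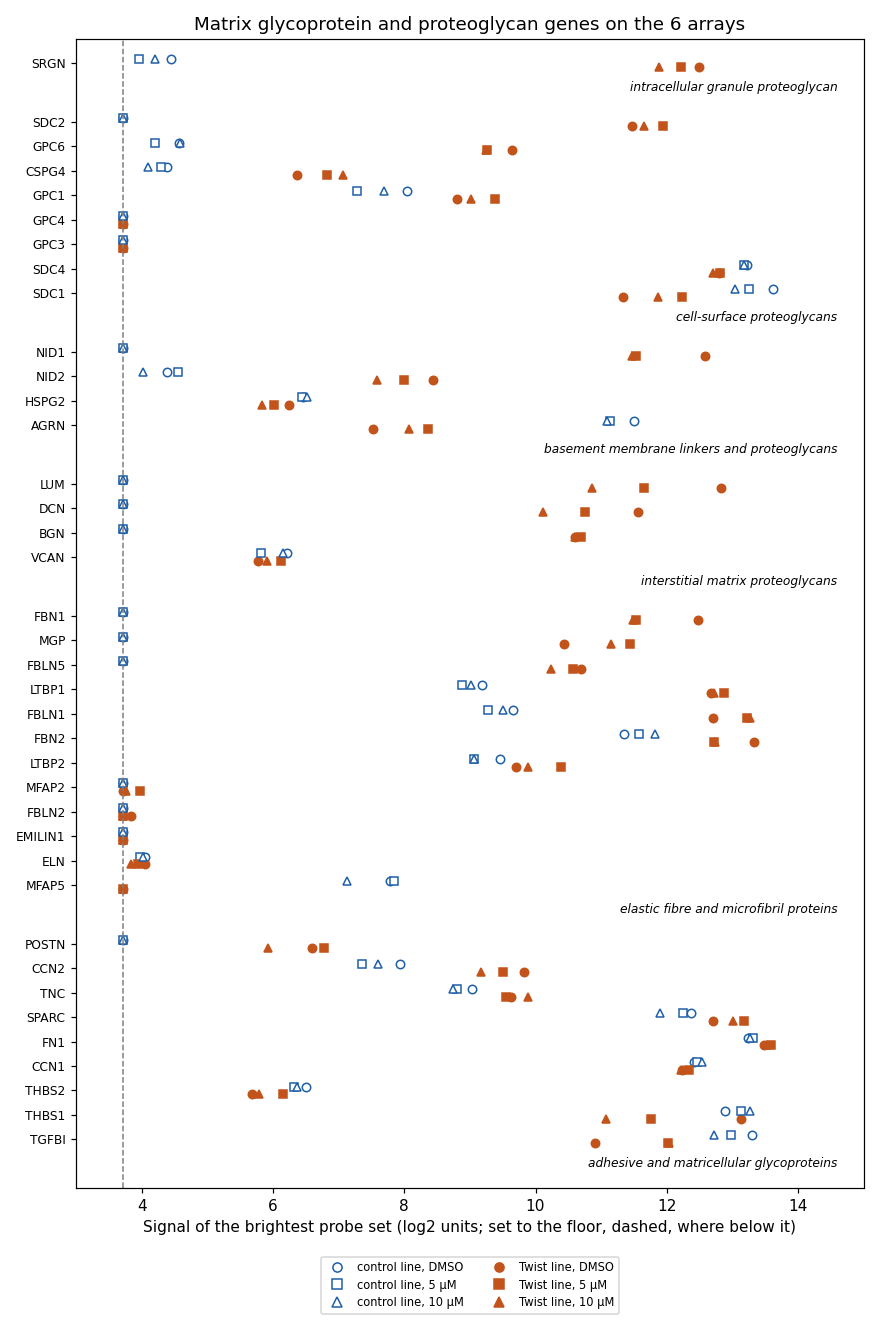
Log2 signal of each of the 38 genes on the 6 arrays, grouped by role, with open symbols for the control line, filled symbols for the Twist line and a dashed line at the floor of 3.71. LUM, DCN, BGN, FBN1, FBLN5, MGP, NID1, SDC2 and POSTN lie at the floor in the control line and above it on all 3 Twist-line arrays, and MFAP5 shows the reverse.

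Among elastic fibre and microfibril genes 6 of 12 were higher and 1 lower. FBN1 encodes fibrillin-1, the main microfibril protein. It was below the floor in the control line and had 12.48, 11.54 and 11.48 in the Twist line, which differ by at least 8.12 ± 0.28 log2 units (limma adjusted p = 3.2e-05). FBN2, encoding the fibrillin more typical of embryonic tissue, was present in both lines, at 11.35, 11.57 and 11.82 in the control line against 13.33, 12.72 and 12.73 in the Twist line. Its difference was smaller, 1.34 ± 0.26 (adjusted p = 0.015), and shrank from 1.98 under DMSO to 0.91 at 10 µM. The fibulin genes FBLN5 and FBLN1, whose products bind elastin and microfibrils, were both higher. FBLN5 was below the floor in the control line against 10.70, 10.58 and 10.24 in the Twist line (at least 6.79 ± 0.20, adjusted p = 2.6e-05). FBLN1 had 9.66, 9.27 and 9.50 against 12.70, 13.23 and 13.27 (3.59 ± 0.24, adjusted p = 0.0003). FBLN2 was above the floor on 1 array only, at 3.83 in the Twist line under DMSO. Both fibulins that were measured were thus far higher in the Twist line, with FBLN5 alone going from below the floor.

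MGP encodes matrix Gla protein, an inhibitor of calcification. It was below the floor in the control line and had 10.43, 11.45 and 11.15 in the Twist line, at least 7.30 ± 0.27 log2 units higher (limma adjusted p = 3.4e-05). LTBP1, whose product tethers latent TGF-beta to microfibrils, had 9.18, 8.87 and 9.01 in the control line against 12.67, 12.87 and 12.72 in the Twist line (3.73 ± 0.20, adjusted p = 0.00012). Its relative LTBP2, which binds fibrillin but not latent TGF-beta, had 9.46, 9.06 and 9.06 against 9.70, 10.39 and 9.89, and its difference of 0.80 ± 0.27 was not called (adjusted p = 0.088). The second probe set of LTBP2 gave -0.59. MFAP5, a microfibril-associated glycoprotein, was the exception among these genes. It had 7.79, 7.84 and 7.12 in the control line and was below the floor in the Twist line, at least 3.87 ± 0.20 lower (adjusted p = 0.00011), and all 3 of its probe sets were lower. ELN, encoding elastin, lay just above the floor on every array, at 3.83 to 4.05, MFAP2 reached 3.97 at most, and EMILIN1 was below the floor throughout. FBN1, FBN2, FBLN1, FBLN5 and LTBP1 were thus well above the floor in the Twist line, while ELN, MFAP2, MFAP5 and EMILIN1 were near or below it.

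Basement membrane genes went both ways. NID1 and NID2 encode nidogens, which join laminin to type IV collagen. NID1 was below the floor in the control line and had 12.58, 11.54 and 11.47 in the Twist line (at least 8.15 ± 0.29 log2 units, limma adjusted p = 3.4e-05). NID2 had 4.39, 4.54 and 4.01 against 8.44, 8.00 and 7.58 (3.69 ± 0.19, adjusted p = 0.00012). AGRN encodes agrin, a heparan sulfate proteoglycan of basement membranes. It had 11.51, 11.14 and 11.09 in the control line against 7.52, 8.37 and 8.07 in the Twist line, which differ by -3.26 ± 0.30 (adjusted p = 0.0009), and the other of its 2 probe sets above the floor gave -3.57. HSPG2, encoding perlecan, had 6.44 to 6.51 against 5.83 to 6.25. The ranges did not overlap, but its difference of -0.44 ± 0.18 was not called (adjusted p = 0.14). Nidogens and agrin, which share a basement membrane, thus differed in opposite directions.

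The cell-surface proteoglycans differed within families. Syndecans are transmembrane heparan sulfate proteoglycans that act as co-receptors for growth factors and matrix. SDC1, the main epithelial syndecan, had 13.63, 13.26 and 13.04 in the control line against 11.33, 12.24 and 11.87 in the Twist line, which differ by -1.50 ± 0.29 log2 units (limma adjusted p = 0.016). SDC2, the syndecan typical of mesenchymal cells, was below the floor in the control line and had 11.47, 11.95 and 11.65 in the Twist line (at least 7.98 ± 0.21, adjusted p = 2.6e-05). SDC4, a widespread syndecan of focal adhesions, had 13.17 to 13.23 against 12.70 to 12.82, and its difference of -0.42 ± 0.16 was not called (adjusted p = 0.12). The 3 syndecan genes thus comprised 1 called lower, 1 called higher and 1 not called.

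Glypicans are heparan sulfate proteoglycans held to the membrane by a lipid anchor. GPC6 had 4.56, 4.20 and 4.57 in the control line against 9.64, 9.26 and 9.25 in the Twist line (4.94 ± 0.20 log2 units, limma adjusted p = 4.5e-05). GPC1 had 8.05, 7.28 and 7.68 against 8.80, 9.38 and 9.02 (1.39 ± 0.31, adjusted p = 0.025). Its other probe set, at 7.16 to 7.90 over the arrays, gave a line difference of only 0.40, and 0.10 under DMSO. GPC3 and GPC4 were below the floor on all 6 arrays. CSPG4, encoding the chondroitin sulfate proteoglycan NG2 of pericytes and mesenchymal progenitors, had 4.39, 4.29 and 4.09 against 6.37, 6.83 and 7.06 (2.49 ± 0.22, adjusted p = 0.00084). SRGN encodes serglycin, a proteoglycan of secretory granules that is also secreted by some tumour cells. It had 4.45, 3.96 and 4.19 in the control line against 12.50, 12.22 and 11.88 in the Twist line, 8.00 ± 0.22 higher (adjusted p = 2.6e-05). SRGN and GPC6 thus lay just above the floor in the control line and far above it in the Twist line.

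**Figure D2:**
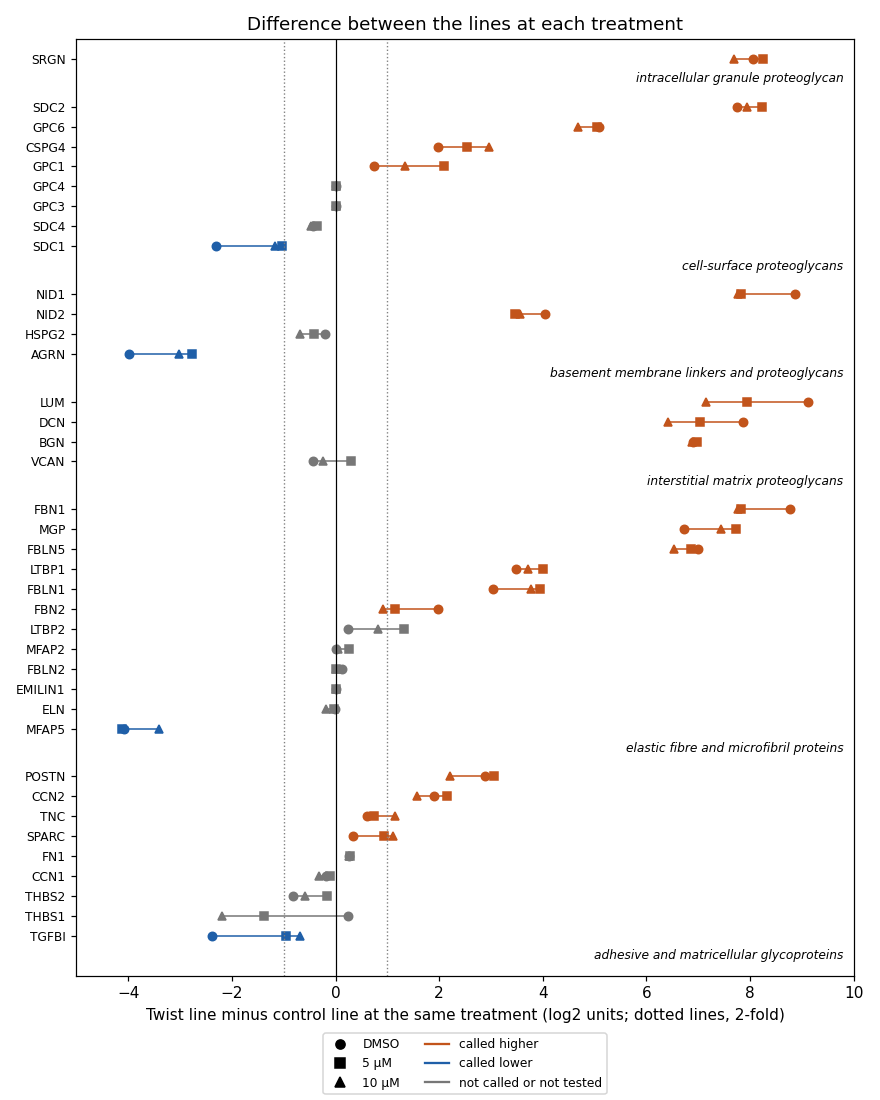
Twist line minus control line in log2 units at DMSO (circle), 5 µM (square) and 10 µM (triangle) for the 38 genes, coloured by the call over the 3 treatments, with dotted lines at 2-fold. The called genes keep their side at every treatment. THBS1 goes from 0.24 under DMSO to -2.18 at 10 µM on its brightest probe set, the only one of its probe sets above 0 under DMSO.

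The adhesive and matricellular glycoproteins differed least, with 4 of 9 higher, 1 lower and a median of 0.26 log2 units. FN1, encoding fibronectin, had 13.24, 13.31 and 13.27 in the control line against 13.49, 13.60 and 13.53 in the Twist line. The ranges did not overlap, but the difference of 0.26 ± 0.15 was not called (limma adjusted p = 0.28). All 7 probe sets of FN1 had a higher mean in the Twist line, by 0.26 to 1.13. Under DMSO alone they did not share a direction: bright ones other than the brightest gave -0.43, -0.33 and -0.26, and the rest 0.25 to 1.56. SPARC, a collagen-binding glycoprotein, had 12.37, 12.24 and 11.89 against 12.70, 13.18 and 13.01 (0.79 ± 0.22, adjusted p = 0.047), with 2.14 on its dimmer probe set. TNC, encoding tenascin-C, had 9.03, 8.80 and 8.74 against 9.63, 9.55 and 9.89 (0.83 ± 0.22, adjusted p = 0.042). POSTN, encoding periostin, was below the floor in the control line and had 6.59, 6.78 and 5.92 in the Twist line (at least 2.72 ± 0.20, adjusted p = 0.00043).

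CCN1 and CCN2 encode related matricellular proteins and are both known targets of the YAP and TEAD factors. CCN2 had 7.93, 7.35 and 7.59 in the control line against 9.82, 9.51 and 9.17 in the Twist line (1.87 ± 0.22 log2 units, limma adjusted p = 0.0026). CCN1 had 12.42 to 12.53 against 12.21 to 12.35, and its difference of -0.21 ± 0.17 was not called (adjusted p = 0.43). TGFBI, a TGF-beta-induced integrin ligand, had 13.30, 12.98 and 12.71 in the control line against 10.91, 12.03 and 12.03 in the Twist line (-1.34 ± 0.36, adjusted p = 0.045). Its difference was -2.39 under DMSO and -0.68 at 10 µM. THBS2 had 6.31 to 6.50 against 5.68 to 6.16 (-0.52 ± 0.20, adjusted p = 0.12). THBS1 encodes thrombospondin-1, which inhibits angiogenesis and activates latent TGF-beta. It had 12.89, 13.13 and 13.26 in the control line against 13.13, 11.76 and 11.08 in the Twist line, where the DMSO array lay within the control range and both Cmp302 arrays below it. Its line difference was not called (-1.11 ± 0.47, adjusted p = 0.15), though all 7 of its probe sets had a lower mean in the Twist line. Under DMSO alone only the brightest of these was higher there. THBS1 was called lower without either DMSO array, with the median over probe sets and without suffixed probe sets.

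Promoter windows were found in RefSeq tables for 27 of the 38 genes on build GRCh38.p14. LUM, DCN, MGP, ELN, EMILIN1, MFAP5, CCN1, SRGN, GPC3, SDC2 and AGRN were not matched. The 250 bases before the annotated start are printed for FBN1, NID1, THBS1 and CCN2. FBN1 and NID1 were below the floor in the control line and bright in the Twist line. THBS1 was the only gene of the 38 called for a difference between the lines in slope over Cmp302 level, a call that depended on settings. CCN2 was the matricellular gene called higher whose relative CCN1 was not. FBN1 lies at chr15:48644971-48645220 on the minus strand, NID1 at chr1:236065091-236065340 on the minus strand, THBS1 at chr15:39580829-39581078 on the plus strand and CCN2 at chr6:131951373-131951622 on the minus strand. Each is written 5' to 3' on the strand of its gene, with matches in capitals to CANNTG, the E-box that factors of the Twist class bind and which reads alike on both strands, or to GGAATG on either strand, a core of the TEAD site.
FBN1: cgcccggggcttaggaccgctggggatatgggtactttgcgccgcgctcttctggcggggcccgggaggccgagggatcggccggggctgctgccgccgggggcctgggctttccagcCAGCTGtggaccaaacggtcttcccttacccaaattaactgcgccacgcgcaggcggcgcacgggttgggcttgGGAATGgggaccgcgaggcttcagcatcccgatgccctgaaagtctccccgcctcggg
NID1: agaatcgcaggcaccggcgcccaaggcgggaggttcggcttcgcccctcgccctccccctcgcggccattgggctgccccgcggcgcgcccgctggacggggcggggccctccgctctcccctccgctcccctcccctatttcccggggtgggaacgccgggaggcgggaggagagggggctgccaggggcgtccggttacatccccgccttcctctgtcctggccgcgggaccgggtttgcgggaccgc
THBS1: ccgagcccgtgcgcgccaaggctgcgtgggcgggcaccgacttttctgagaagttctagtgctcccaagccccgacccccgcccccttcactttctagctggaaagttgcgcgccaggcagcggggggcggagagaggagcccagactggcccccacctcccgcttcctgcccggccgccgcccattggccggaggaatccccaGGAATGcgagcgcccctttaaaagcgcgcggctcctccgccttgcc
CCN2: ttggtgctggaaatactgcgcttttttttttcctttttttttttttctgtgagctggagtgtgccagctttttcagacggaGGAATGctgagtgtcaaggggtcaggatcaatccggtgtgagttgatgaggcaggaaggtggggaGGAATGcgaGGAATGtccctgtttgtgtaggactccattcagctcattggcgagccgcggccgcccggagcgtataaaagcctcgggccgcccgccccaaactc
FBN1 held 1 CANNTG, written CAGCTG, and 1 GGAATG. NID1 held neither, THBS1 held 1 GGAATG, and CCN2 held 3 GGAATG and no CANNTG. In FBN1, the 1 printed window with both, the matches began 132 and 58 bases before the start and did not overlap. CANNTG was present in 61.8% of the 35116 windows of this length in the table and in 14 of the 33 windows of the 38 genes, some of which have several starts. GGAATG was present in 11.9% of all windows and in 5 of those 33. A match describes letters only, and no binding was measured here.

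The Cmp302 arrays address how these genes responded to the compound in each line. In the control line no gene of the 38 differed from DMSO by 2-fold at either level. Differences ran from -0.77 (GPC1) to 0.25 (THBS1) at 5 µM and from -0.66 (MFAP5) to 0.48 (FBN2) at 10 µM. Over all genes above the floor, 0.0585% were higher and 0.0668% lower past 2-fold at 5 µM, and 0.2% and 0.259% at 10 µM. Between 5 µM and 10 µM none of the 38 passed 2-fold in this line either, against 0.0418% and 0.092%. A limma fit of signal on level, coded 0, 1 and 2, called 0 of the 38 genes and 0 of all genes in the control line, with 937 of 12478 genes at an unadjusted p under 0.05. The error of this fit, on 2 residual degrees of freedom, measures departure from a straight line over level within each line. It does not measure variation between cultures. For a gene at the floor throughout 1 line, such as LUM or DCN, that line adds no departure and so lowers the error. In the Twist line 3 genes were lower past 2-fold at 5 µM (LUM, THBS1 and NID1) and 4 at 10 µM (with DCN), against 5.01% and 8.46% of all genes. At 5 µM 2 were higher (MGP and TGFBI) and at 10 µM 1 (TGFBI), against 4.26% and 8.04%. The same fit over level called 3 of the 34 genes tested as falling (8.82%) and 2 as rising (5.88%) in the Twist line. Of all genes tested, 11.4% fell and 10.8% rose. The shares called by the fit lie below those of all genes and rest on 3 and 2 genes. Past 2-fold, 8.82% of the 34 genes above the floor were lower at 5 µM and 11.8% at 10 µM. These shares are above those of all genes and rest on 3 and 4 genes. The shares higher were 5.88% and 2.94%, from 2 genes and 1. Whether any of these shares differs from that of all genes was not tested.

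THBS1 fell in the Twist line from 13.13 under DMSO to 11.76 at 5 µM and 11.08 at 10 µM, while the control line had 12.89, 13.13 and 13.26. This is 2.59-fold and 4.14-fold lower than DMSO, a slope of -1.02 ± 0.11 log2 units per level (SE, limma adjusted p = 0.011). The slope differed between the lines by -1.21 ± 0.16 per level (adjusted p = 0.041), and THBS1 was the only gene of the 38 with a called difference in slope, against 0.729% of all genes called above 0 and 0.793% below. That difference was not called with the floor at the 65th percentile or with the median over probe sets, and the Twist-line slope was not called with the latter. Neither was called with no filter on low signals (adjusted p = 0.23 and 0.15) or without any single array other than the Twist array at 5 µM. Its probe sets did not all move alike. At 10 µM 6 of 7 were below DMSO, from -2.09 to 0.19, and the exception was at 7.81, 8.42 and 8.00.

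LUM fell from 12.83 to 11.66 and 10.86, 2.25-fold and 3.91-fold lower than DMSO (-0.98 ± 0.11 log2 units per level, limma adjusted p = 0.011). DCN fell from 11.57 to 10.75 and 10.12, 1.77-fold and 2.73-fold lower (-0.72 ± 0.10, adjusted p = 0.016). The DCN probe sets above the floor differed from DMSO by -2.39 to 0.32 at 5 µM, where 1 of 5 was higher, and by -4.00 to -0.27 at 10 µM, with the widest ending at the floor. Neither slope was called with no filter (adjusted p = 0.15 and 0.17) or without any single array other than the Twist array at 5 µM. The third small leucine-rich gene, BGN, had 10.60 to 10.69 over the same arrays. Since LUM and DCN were at the floor in the control line, their differences in slope between the lines rest on a flat floor there, and neither was called (adjusted p = 0.051 and 0.054). Other settings changed this, still on a flat floor. The difference was called for DCN with the median over probe sets and without suffixed probe sets, and for LUM with the floor at the 35th percentile. On their brightest probe sets lumican and decorin were thus lower on both Cmp302 arrays of the Twist line, with biglycan close to its DMSO value.

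**Figure D3:**
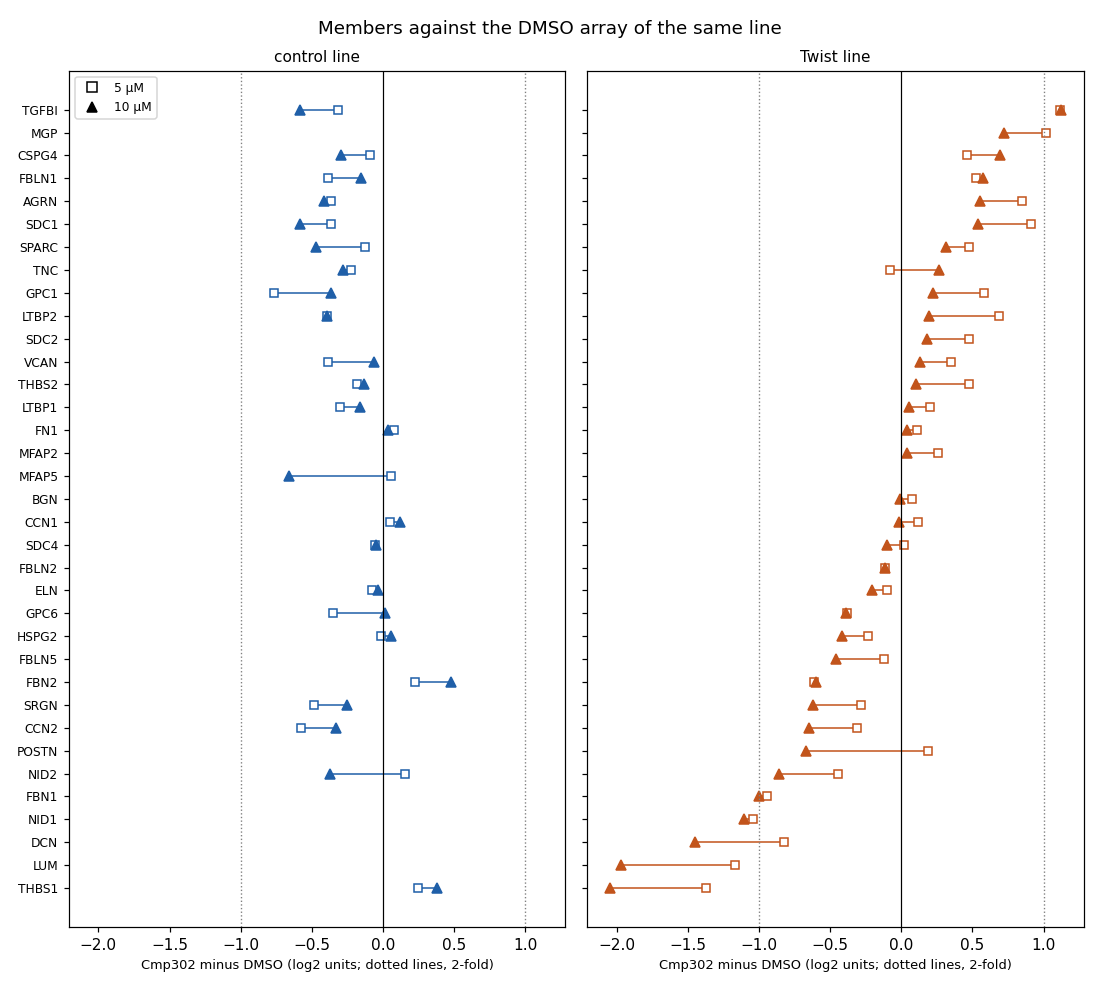
Difference from the DMSO array of the same line in log2 units at 5 µM (open square) and 10 µM (triangle), for the control line (left) and the Twist line (right), with dotted lines at 2-fold and genes below the floor in a line left blank there. THBS1, LUM, DCN and NID1 lie past 2-fold at 10 µM in the Twist line, and no gene does in the control line.

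NID1 and FBN1, high in the Twist line, were each lower on both Cmp302 arrays with little step between them. NID1 went from 12.58 to 11.54 and 11.47, and FBN1 from 12.48 to 11.54 and 11.48. Their slopes of -0.55 ± 0.15 and -0.50 ± 0.15 log2 units per level were not called (limma adjusted p = 0.051 and 0.058). With the levels coded 0, 1 and 1, which fits such a shape, both were called. A gene's own error in that fit is only the gap between the Cmp302 arrays within each line. For both genes this gap was small in the Twist line and absent at the floor in the control line. These calls therefore cannot decide whether the drop from DMSO exceeds variation between cultures. With levels 0, 1 and 2, NID1 and FBN1 were called with the median over probe sets and without the Twist array at 5 µM. NID1 was also called with the floor at the 65th percentile. NID2 had a slope of -0.43 ± 0.12 that was not called (adjusted p = 0.051), except with that higher floor. FBN2 had one of -0.30 ± 0.11, not called (adjusted p = 0.09), except with levels 0, 1 and 1 and without the Twist array at 5 µM. Differences from DMSO at 10 µM were -0.65 for CCN2, -0.62 for SRGN, -0.67 for POSTN, -0.46 for FBLN5 and -0.39 for GPC6. None of these genes was called, except POSTN without the Twist array at 5 µM.

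In the other direction, TGFBI rose from 10.91 to 12.03 and 12.03, 2.17-fold and 2.18-fold above DMSO (0.56 ± 0.15 log2 units per level, limma adjusted p = 0.0499), while the control line went from 13.30 to 12.98 and 12.71. CSPG4 rose from 6.37 to 6.83 and 7.06 (0.35 ± 0.08, adjusted p = 0.039). The calls of TGFBI and CSPG4 depend on settings: TGFBI was lost with the deposited scaling and with quantile normalization, CSPG4 with the floor at the 35th percentile, and both with the median over probe sets and without suffixed probe sets. MGP was above DMSO by 1.02 and 0.72, SDC1 by 0.91 and 0.54, AGRN by 0.85 and 0.55 and FBLN1 by 0.53 and 0.57. None of them was called with levels 0, 1 and 2. With the levels coded 0, 1 and 1, MGP, SDC1, AGRN, FBLN1 and TGFBI were all called as rising. As for NID1 and FBN1, such calls cannot decide whether the change from DMSO exceeds variation between cultures. MGP was also called without the Twist array at 5 µM. SDC1, AGRN and TGFBI were lower than DMSO on both Cmp302 arrays of the control line, and for all 3 the signal on the Twist DMSO array was the lowest of the 6.

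The step from 5 µM to 10 µM in the Twist line does not use the DMSO array. None of the 38 genes passed 2-fold over it, against 0.593% of all genes higher and 0.508% lower. The median difference was -0.16 log2 units over the 38 genes, and 0.00 over all genes as well as over the genes tested. LUM, THBS1 and DCN were lower by 0.80, 0.68 and 0.63 over this step, and POSTN by 0.86. NID1 and FBN1 were lower by 0.07 and 0.06, and TGFBI had 12.03 on both. Without the Twist DMSO array no gene on the array was called in the trend, and the same held without any other array except the Twist array at 5 µM; such fits have 1 residual degree of freedom.

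Where a gene had several probe sets, some disagreed under Cmp302. For FN1 the brightest probe set gave 0.11 and 0.04 log2 units at 5 µM and 10 µM, while 3 other bright ones gave 0.72 to 1.02 at 10 µM and 2 dim ones -0.51 and -1.31. LTBP1 gave 0.20 and 0.05 on its brightest probe set and 1.60 and 1.61 on the other, which had 8.54 under DMSO. SPARC gave 0.48 and 0.31 on one and -0.83 and -1.17 on the other. LTBP2 gave 0.69 and 0.19 against -0.98 and -1.64, and CCN1 gave 0.12 and -0.02 against 1.25 and 1.31. FBLN1 ranged from -0.99 to 0.57 at 10 µM, with 2 probe sets below DMSO and 3 above, and VCAN from -1.03 to 0.52. The dimmer probe sets of CSPG4 and GPC6 gave -0.05 and 0.06, against 0.69 and -0.39 on the brightest, and BGN ranged from -0.01 to 0.36. At 10 µM the direction of all these genes but LTBP1, and for LTBP1 the size, depends on the probe set. Whether the 3' to middle contrast of the Twist DMSO array has a part in this was not tested. NID1, FBN1, FBN2, LUM and SDC1 kept 1 direction on all their probe sets above the floor.

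**Figure D4:**
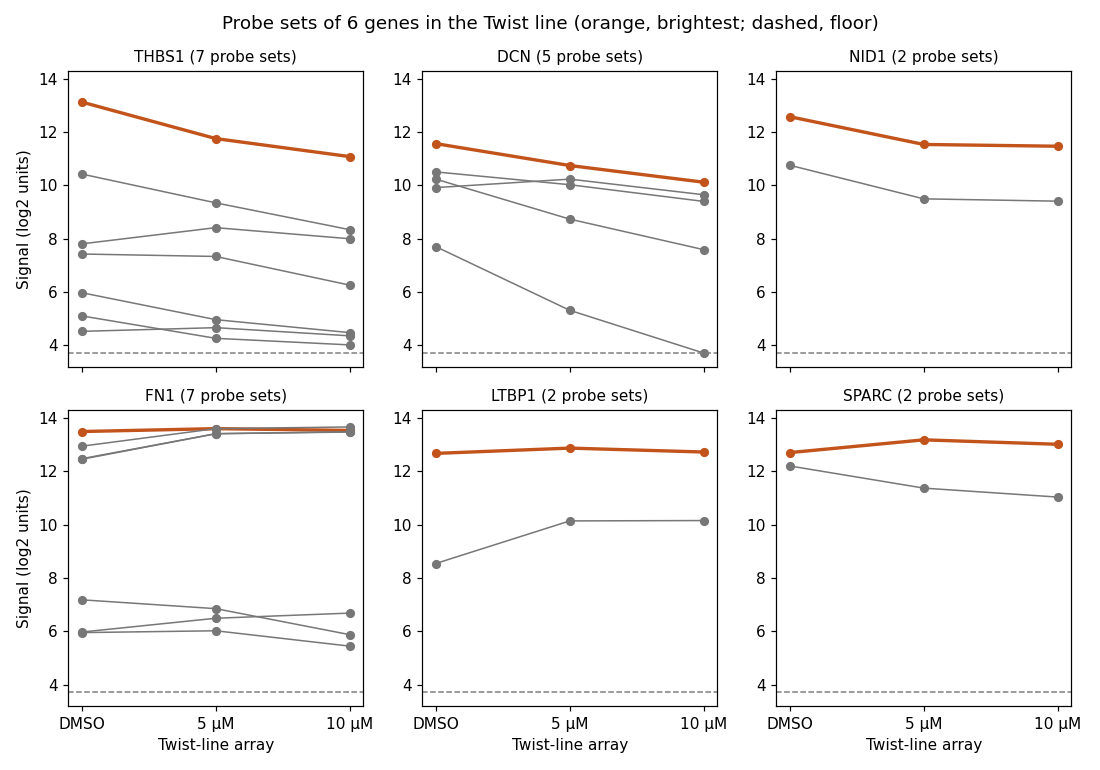
Log2 signal on the 3 Twist-line arrays of every probe set above the floor for 6 genes, with the brightest in orange and the floor dashed. At 10 µM all lines of DCN and NID1 and 6 of 7 for THBS1 end below their DMSO value, while the lines of FN1, LTBP1 and SPARC diverge.

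Other genes of matrix metabolism were read from lists that are not part of the 38. Among 33 genes on the array that build, sulfate or edit glycosaminoglycan chains, 31 were tested. The Twist line had 4 of these higher and 9 lower, where 13.7% and 14.9% of all genes tested were so called. The extracellular sulfatase genes differed in opposite directions, SULF1 being below the floor in the control line and at 9.18 to 9.56 in the Twist line (at least 5.61 ± 0.19 log2 units, limma adjusted p = 2.8e-05) and SULF2 having 10.83 to 11.14 against 6.72 to 7.06 (-4.13 ± 0.23, adjusted p = 0.00014). HS3ST1, a heparan sulfate 3-O-sulfotransferase gene, was lower by at least 4.79 ± 0.17 (adjusted p = 3.3e-05), and HAS2, a hyaluronan synthase gene, higher by 3.64 ± 0.21 (adjusted p = 0.00017). With Cmp302 in the Twist line 2 of the list rose and 3 fell, against 10.8% and 11.4% of all genes. EXT1, which polymerises heparan sulfate, went from 11.31 to 12.44 and 12.59 and rose (0.64 ± 0.15 per level, adjusted p = 0.036), while XYLT1, which starts the chains, went from 11.90 to 10.72 and 10.85 and was not called (adjusted p = 0.082).

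Of 29 matrix proteases and inhibitors 23 were tested, and the Twist line had 10 higher and 9 lower, against the same 13.7% and 14.9%. The ADAMTS-family genes ADAMTS12 and ADAMTS1 were higher by at least 5.47 ± 0.18 and 4.05 ± 0.47 log2 units (limma adjusted p = 2.8e-05 and 0.0023), and the metalloproteinase genes MMP10 and MMP9 lower by at least 4.60 and 3.83, both being below the floor in the Twist line. ADAMTS5 rose with Cmp302 in the Twist line, from 5.45 to 7.72 and 7.68 (1.12 ± 0.28 per level, adjusted p = 0.043), and was the 1 gene of the list to rise, while 3 fell (10.8% and 11.4% of all genes). Among 24 genes of the TGF-beta and BMP pathways 20 were tested. Between the lines 3 were higher and 4 lower, against 13.7% and 14.9% of all genes tested. GREM1, a secreted BMP antagonist, was higher by at least 8.44 ± 0.20 and TGFBR3, itself a proteoglycan co-receptor, by at least 7.07 ± 0.19 (adjusted p = 2.6e-05 for both), while BMP2 and the activin antagonist FST were lower by at least 4.79 ± 0.38 and 4.13 ± 0.25 (adjusted p = 0.00055 and 0.00019). INHBA, encoding an activin subunit, rose with Cmp302 from 9.39 to 11.34 and 11.58 (adjusted p = 0.029), as did BMP2, from the floor to 4.98 and 5.39 (adjusted p = 0.024), and 2 genes of the list fell, where 10.8% and 11.4% of all genes rose and fell.

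Of 32 further matrix glycoproteins and proteoglycans 22 were tested. The Twist line had 11 higher and 2 lower, against 13.7% and 14.9% of all genes tested. EDIL3, TNFAIP6 and SPOCK1 were higher by at least 6.11, at least 5.26 and 5.06 log2 units, and NPNT, encoding the basement membrane protein nephronectin, lower by at least 7.23 ± 0.20 (limma adjusted p = 2.6e-05). With Cmp302 in the Twist line 6 of these fell and 2 rose, against 11.4% and 10.8%. CCN3, a relative of CCN1 and CCN2, fell from 9.02 to 8.02 and 6.81 (-1.10 ± 0.09 per level, adjusted p = 0.0058), and EDIL3, an integrin ligand, from 10.88 to 9.77 and 8.83 (-1.02 ± 0.10, adjusted p = 0.0082). Both were at the floor in the control line, so their slope there is flat by construction and no response of that line could be measured.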

How the data were processed

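RNA from 6 HMLE cultures, 1 per group, was measured on Affymetrix U133 Plus arrays, and nothing says that any group was repeated. The deposited values are log2 signals, 1 per probe set and array, judged from their range since the labels name no unit; per the submitters' processing notes the software was GCOS 1.2, and background correction, summarisation and normalisation are not given in the sources used here. Column medians were 3.69 to 3.74. Of 54675 probe sets, 62 controls, 1801 with several symbols and 11721 with none were left out. Arrays were shifted by -0.03 to 0.01 to a common median ratio over the brighter probe sets, and signals under the median of all values were set to that floor. A gene was read by its brightest probe set. Symbols come from the platform annotation, updated by gene ID through RefSeq.

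Tests used limma 3.58.1 in R 4.3.3 (eBayes with trend, Benjamini-Hochberg at 0.05) on the 12478 genes measured above the floor by 2 or more arrays, testing line beside a treatment factor, or line, level (0, 1, 2) and their interaction. The fits were tested on simulated data. Alternatives were unscaled deposited values, quantile normalization, a floor at percentile 35 or 65, probe set medians, no suffixed probe sets, no filter, levels 0, 1 and 1, and omission of single arrays or treatment pairs. Values on every array are given for the 14 genes with the widest line difference and the 8 with the widest difference from DMSO by rule, and those of the others were chosen after their values were seen. Of the other lists, the 4 genes widest between lines and the 2 widest under Cmp302 were named. The 38 genes, lists and tests were chosen with earlier results of these data known.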

Additional observations from a re-analysis of the deposited data

Results flagged for a closer look

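THBS1 was noted because its slope over Cmp302 level differed between the lines by -1.21 log2 units per level in the limma interaction term, with the Twist line going down and the control line up. This is the difference in trend given above. SDC1, AGRN and TGFBI were noted because both Cmp302 arrays lay below DMSO by over 0.25 log2 units in the control line and above it by as much in the Twist line. Their differences in slope were 0.56, 0.48 and 0.85 log2 units per level, and none was called (limma adjusted p = 0.14, 0.19 and 0.059). Beside them, the 3' to middle contrast was 0.28, 0.45 and 0.84 over the control-line arrays and 0.96, 0.36 and 0.45 over the Twist-line arrays, and its part in these differences was not tested.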

How the results depend on the processing

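No paired analysis was possible because the labels carry no replicate numbers, other than the pairing of the lines by treatment that the line fit already holds. The cause of the differences listed here was not tested. For the line difference, the 14 genes named by rule kept their direction and call under every setting in which they were tested, but some sizes moved widely. LUM ranged from 0.71 to 8.89 log2 units, FBN1 from 3.58 to 8.69, MGP from 3.22 to 7.75 and MFAP5 from -4.62 to -1.56, and all 4 are bounds that move with the floor or the probe set. Among the 38 genes 17 to 21 were called higher and 4 to 7 lower when an array or a treatment pair was left out (7 without either DMSO array or the DMSO pair), and 2 were called lower with no filter on low signals. Over all genes the 3559 calls became 2075 with no filter and ranged from 2452 to 7243 when an array or pair was left out, with 7239 and 7225 without the control or Twist DMSO array.

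For the Twist-line trend, the 2 genes that rose became 1 with the deposited scaling, with quantile normalization and with the floor at the 35th percentile, 0 with the median over probe sets, without suffixed probe sets and with no filter, and 5 with levels 0, 1 and 1; leaving out an array gave 0 to 3. The 3 that fell became 5 with the floor at the 65th percentile and without suffixed probe sets, 0 with no filter and 6 with levels 0, 1 and 1, and leaving out an array gave 0 to 7. Over all genes 2773 calls became 16 with no filter, 4164 with levels 0, 1 and 1 and 0 to 3227 without an array. The 1 called difference in trend became 2 with the floor at the 35th percentile and without suffixed probe sets, 0 with the floor at the 65th percentile and with no filter, 8 with levels 0, 1 and 1 and 0 to 8 without an array. Over all genes 190 calls became 468, 43, 10 and 3293 with the lower floor, the higher floor, no filter and levels 0, 1 and 1, and 0 to 2202 without an array. In the control line 14 genes were called with no filter, none of them among the 38.

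Members past 2-fold at 5 µM in the Twist line numbered 5, and 3 with the median over probe sets. At 10 µM they numbered 5, and 0 over the step from 5 µM. Without the Twist DMSO array the slopes of MGP and SDC1 reversed, to -0.30 and -0.37 log2 units per level, and over all omissions of an array they reached 1.02 and 0.91. The dimmest genes, near 3.71, are limited by the floor.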
